A study of Mus musculus with 9 samples.

Results

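The genes described here encode 9 subunits of the basement membrane: the laminin α chains Lama3 and Lama5, the β chains Lamb1, Lamb2 and Lamb3, the γ chain Lamc1, the collagen IV chains Col4a1 and Col4a2, and nidogen Nid1. They were taken by symbol from the 24067 genes of the authors' deposited table. Expression was measured by RNA-seq of polyadenylated RNA in 9 libraries of 4T1, a mouse mammary carcinoma cell line that grows in culture and spreads in mice. Cells were transfected with a control plasmid or with a plasmid for the microRNA miR-204-5p, and stable clones were selected with Zeocin. By title there are 3 control, 3 clone 2 and 3 clone 3 libraries, and the labels give miR-204-5p in clones 2 and 3 as on average 150-fold and 525-fold over control. The libraries of each title also carry the codes NTC, C-20 and C-26, as replicates 1, 2 and 3, and the authors' deposited comparisons follow these codes, with NTC in the place of the control. What the codes stand for is not given in the sources used here. The labels attach miR-204-5p to the titles and the table takes NTC as its control, so which grouping carries the overexpression cannot be told from these sources, and both were compared. Each clone is 1 selected line, so a difference between clone and control cannot be told apart from differences between lines. Nothing in the labels says whether the 3 libraries of a title came from separate cultures, and the p-values measure the spread between these libraries only. Each pair of a title and a code occurs in a single library.

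A laminin is a trimer of 1 α, 1 β and 1 γ chain, assembled in the endoplasmic reticulum and secreted as a cross-shaped or rod-shaped molecule that polymerises under epithelia. Collagen IV forms a second network, most widely as a triple helix of Col4a1 and Col4a2 chains, and nidogen binds both networks. In the mammary gland these sheets separate the epithelium from the stroma, and carcinoma cells meet and remodel them when they invade. Lama3 and Lamb3 are chains of the laminin of hemidesmosomes, while Lama5 with Lamb1 or Lamb2 and Lamc1 forms the main laminins of adult epithelial basement membranes.

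A microRNA binds mRNA mainly by its seed, bases 2 to 8, and the 3′ UTRs of the 9 genes were searched for matches to the seed of the overexpressed microRNA. Its RefSeq sequence is shown with the seed in capitals, followed by the 2 matches of 7 bases that were found, each with flanking bases and with the match in capitals.
miR-204-5p: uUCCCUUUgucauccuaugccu
Lamc1: gctgacagggtAAAGGGAttaggaacgttt
Col4a1: cagagaacagtcAAGGGAActggtttcttc
The Lamc1 match, AAAGGGA, pairs with the whole seed, and its part AAGGGA starts at position 1769 of the 3′ UTR. The Col4a1 match, AAGGGAA, pairs with bases 2 to 7 and ends in an A opposite base 1, and it starts at position 472. None of the 9 genes held the 8-base match AAAGGGAA. Of 10369 tested genes with a 3′ UTR in GENCODE M21, 9.905% held AAAGGGA and 10.531% held AAGGGAA, each outside the 8-base match. The 8-base match was held by 6.384%. Both genes had higher mean values in the 2 clones than in the control, and this passed the threshold given below for Col4a1 in clone 3 only. A part of the microRNA in these levels was not tested, and a match in these letters says nothing about binding.

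Col4a1 and Col4a2 lie head to head on chromosome 8, and in RefSeq GRCm38.p6 their starts are 21 bases apart on opposite strands. The promoter windows, 250 bases before to 50 bases after each start, are shown because both genes were measured together and the windows share 78 bases (chr8:11312777-11312854). Capitals mark the GC box GGGCGG and the CCAAT box, each on either strand.
Col4a1 (chr8:11312777-11313076, minus strand): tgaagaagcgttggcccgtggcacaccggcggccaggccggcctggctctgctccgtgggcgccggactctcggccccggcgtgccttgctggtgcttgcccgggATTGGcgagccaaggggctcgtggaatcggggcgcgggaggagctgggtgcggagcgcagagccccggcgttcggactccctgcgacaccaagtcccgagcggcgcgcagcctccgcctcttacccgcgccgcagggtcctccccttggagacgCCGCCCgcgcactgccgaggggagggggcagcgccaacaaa
Col4a2 (chr8:11312555-11312854, plus strand): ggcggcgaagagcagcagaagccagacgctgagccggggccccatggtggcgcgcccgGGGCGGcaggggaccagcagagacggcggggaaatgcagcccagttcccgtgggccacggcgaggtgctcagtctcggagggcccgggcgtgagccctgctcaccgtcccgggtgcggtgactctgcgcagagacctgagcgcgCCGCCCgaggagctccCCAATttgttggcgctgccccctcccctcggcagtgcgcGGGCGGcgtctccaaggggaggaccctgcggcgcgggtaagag
The Col4a1 window held 1 GC box and 1 CCAAT box, and the Col4a2 window held 3 GC boxes and 1 CCAAT box. The GC box of the Col4a1 window and the last one of the Col4a2 window are the same bases, within the shared stretch. The GC box was present in 35.66% and the CCAAT box in 37.41% of all 32851 promoter windows. GC content was 74.0% and 73.7%, against a median of 52.7% over all windows. Neither window held the AP-1 motif TGANTCA or the TATA box TATAAA, which were present in 7.81% and 13.62% of windows. The windows of Lamb2 and Lamb3 held none of these 4 motifs. A motif match is a description of the letters and not a site of binding.

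Values are FPKM, fragments per kilobase of transcript scaled to the fragments mapped in each library, so levels can be compared between genes. Lamb1 was the most abundant of the 9 genes, at 135.8 ± 34.7 FPKM (SD, n = 9 libraries). Col4a1 followed at 62.96 ± 13.6, then Lamc1 at 50.4 ± 8.80, Lama5 at 48.0 ± 13.3 and Col4a2 at 46.23 ± 11. The means of Lamc1, Lama5 and Col4a2 lay within 1 SD of each other. Lamb3 was lower, at 21.18 ± 9.55 FPKM, and Lamb2 lower again, at 8.22 ± 2.95. Lama3 and Nid1 stayed under 1 FPKM in every library. Read counts are not analysed here and the absolute depth is unknown; relative depth, read from the spacing of low values, was 0.8889 to 1.1419. Genes with at least 1 FPKM in at least 3 libraries were tested, which kept 10783 genes and 7 of the 9, all but Lama3 and Nid1.

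**Figure D1:**
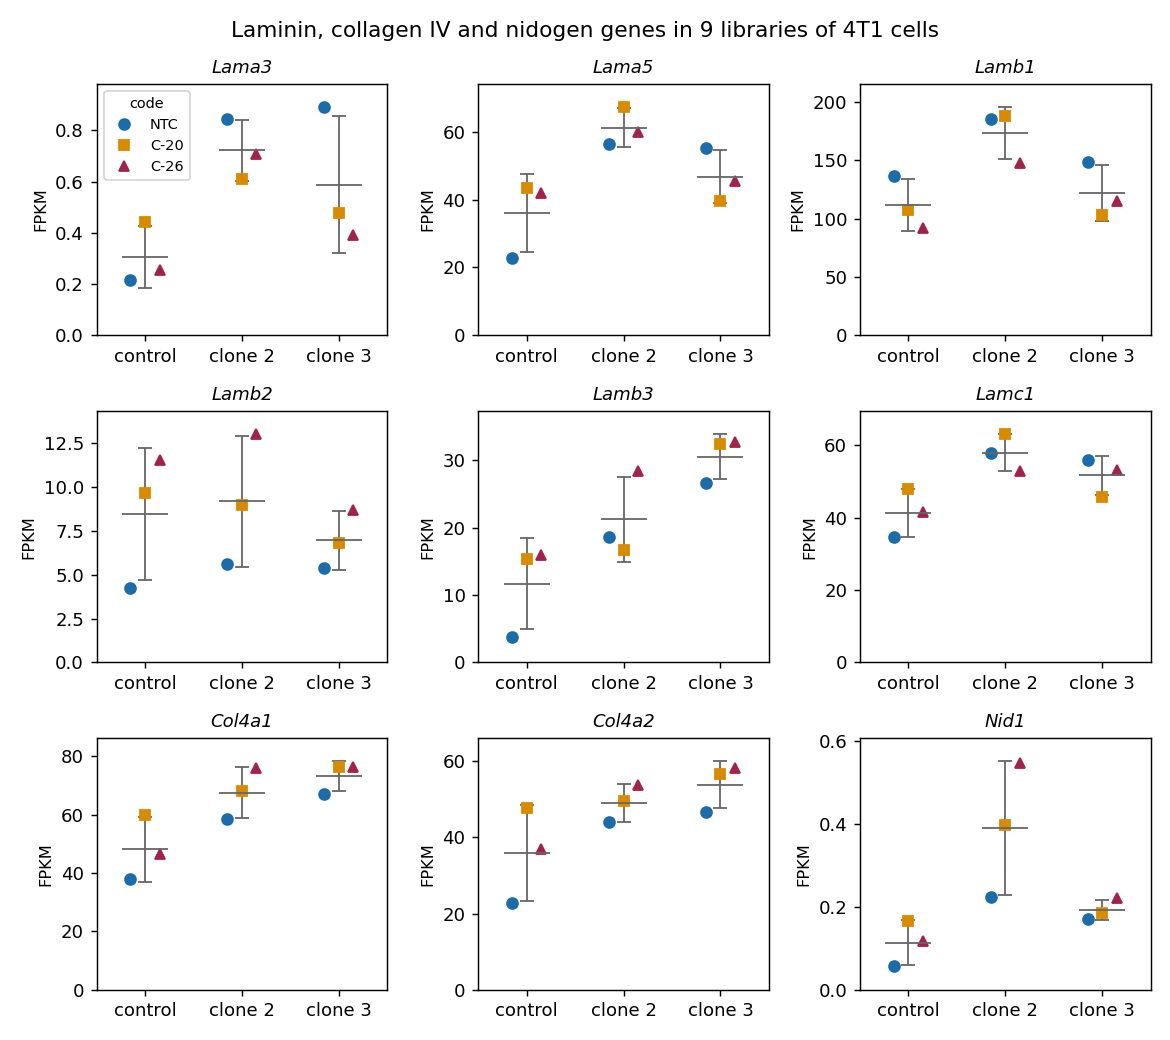
FPKM (linear axes from 0) of each of the 9 genes by title group; points are single libraries, with the code given by shape and colour, and grey bars are the mean and SD of 3 libraries. The control NTC library is the lowest of all 9 in every panel but that of Lamb1, and the Lamb2 points are ordered NTC, C-20, C-26 from low to high in each title group.

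The control NTC library (control replicate 1) stands apart for these genes. It held the lowest of the 9 values for 8 of the 9 genes, while 29.1% of the 10783 tested genes had their lowest value there. All 6 epithelial markers, the keratins Krt7, Krt8, Krt18 and Krt19 with the adhesion proteins Epcam and Cdh1, were also lowest in it. Their summed level was 385 to 1230 FPKM in control, 910 to 1460 in clone 2 and 1300 to 1700 in clone 3, so carcinoma markers were present in every library. Their part in the results was not tested, and with bulk RNA fewer cells of a type and less RNA per cell cannot be told apart. Markers of endothelial cells, which build much of the basement membrane of vessels, were near 0: their 9 genes summed to 0.455 to 1.36 FPKM, 1.04 to 1.28 in control, 0.455 to 1.36 in clone 2 and 0.767 to 1.33 in clone 3, and none was tested. Of 9 fibroblast markers only Pdgfra was tested, and the summed level was 1.5 to 7.24 FPKM in control, 2.66 to 8.13 in clone 2 and 3.72 to 4.73 in clone 3. Of 8 leukocyte markers only Cd68 was tested, Cd3e was at 0 in all libraries, and the summed level was 4.73 to 8.2, 6.48 to 11.9 and 5.43 to 7.61 FPKM in the same order.

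In clone 3, Lamb3 and Col4a1 rose over control, and no other gene of the 9 was called. Lamb3, a chain of hemidesmosomal laminin, went from 11.7 ± 6.80 FPKM in control to 30.58 ± 3.40 in clone 3 (SD, n = 3 each), and Col4a1 went from 48.13 ± 11.1 to 73.21 ± 5.22. The count of 2 of 7 tested genes stands beside 20.6% of all tested genes called in this comparison, 802 higher and 1418 lower. A share of that size is not particular to these genes. All values for clone 3 against control were compared in limma on log2(FPKM + 1), fitted over all 9 libraries. The p-values were adjusted over all tested genes, not over the comparisons, and called below 0.05. Neither gene was called in the limma F test of any difference among the 3 titles, fitted without a block. Its adjusted p was 0.0645 for Lamb3 and 0.0760 for Col4a1.

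Lamb3 measured 3.86, 15.3 and 15.9 FPKM in the control NTC, C-20 and C-26 libraries. It measured 18.6, 16.7 and 28.5 FPKM in clone 2 and 26.7, 32.4 and 32.7 in clone 3, in the same order of codes. Every library of both clones lay above every control library, and the clones overlapped with each other. The log2 change of clone 3 over control was 1.51 ± 0.42 (SE), with a limma adjusted p of 0.0304, and without the control NTC library it was 0.92 with an adjusted p of 0.0141. The call was lost without the NTC, C-20 or C-26 library of clone 3, with limma adjusted p of 0.0532, 0.104 and 0.101. For clone 2 the log2 change was 0.98 ± 0.42 with an adjusted p of 0.549 in limma, and 0.39 without the control NTC library. The difference between clone 3 and clone 2 was 0.53 ± 0.42, with an adjusted p of 0.398 in limma, so the clones were not shown to differ.

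Col4a1, whose chain pairs with Col4a2 in the main collagen IV trimer, measured 37.8, 59.9 and 46.6 FPKM in control NTC, C-20 and C-26. The values were 58.6, 68.1 and 75.8 FPKM in clone 2 and 67.2, 76.2 and 76.3 in clone 3. All clone 3 libraries lay above all control libraries, while 1 clone 2 library lay below the highest control library. The log2 change of clone 3 over control was 0.62 ± 0.19 with a limma adjusted p of 0.0427, and 0.46 with an adjusted p of 0.0735 without the control NTC library. The Col4a1 call was also lost without the C-26 library of control (limma adjusted p 0.106), without the C-20 or C-26 library of clone 2 (0.0700 and 0.0506), and without the NTC, C-20 or C-26 library of clone 3 (0.0595, 0.136 and 0.136). For clone 2 it was 0.50 ± 0.19 with an adjusted p of 0.497 in limma.

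Col4a2 measured 22.7, 47.7 and 36.9 FPKM in control, 43.9, 49.5 and 53.7 in clone 2 and 46.7, 56.6 and 58.3 in clone 3, in the order NTC, C-20 and C-26. The control C-20 library lay above 1 library of each clone. The log2 changes over control were 0.63 ± 0.24 in clone 3 and 0.50 ± 0.24 in clone 2, with limma adjusted p of 0.0909 and 0.597. Without the control NTC library these were 0.35 and 0.21, with limma adjusted p of 0.170 and 0.549. The ratio of Col4a1 to Col4a2 was 1.67 in the control NTC library and between 1.26 and 1.44 in the other 8, while each gene varied over the 9 libraries by a factor of 2.02 and 2.57 between its lowest and highest value. The 2 genes overlap by 22 exon bases on opposite strands in GENCODE M21, and Col4a2 shares a further 43 with an antisense gene; whether reads were assigned by strand is not given in the sources used here.

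Both calls depend on how transcript length and base composition are treated. The 9 genes have long transcripts, of 4056 to 11388 bases, against a median of 3002 for tested genes. After length and GC content were corrected within each library, the log2 change of clone 3 over control was 1.12 for Lamb3 (limma adjusted p 0.119) and 0.29 for Col4a1 (adjusted p 0.271). The uncalled changes of Lama5, Lamc1 and Col4a2 were 0.145, 0.11 and 0.29 after that correction. With no filter on low values the limma adjusted p was 0.0857 for Lamb3 and 0.0658 for Col4a1.

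**Figure D2:**
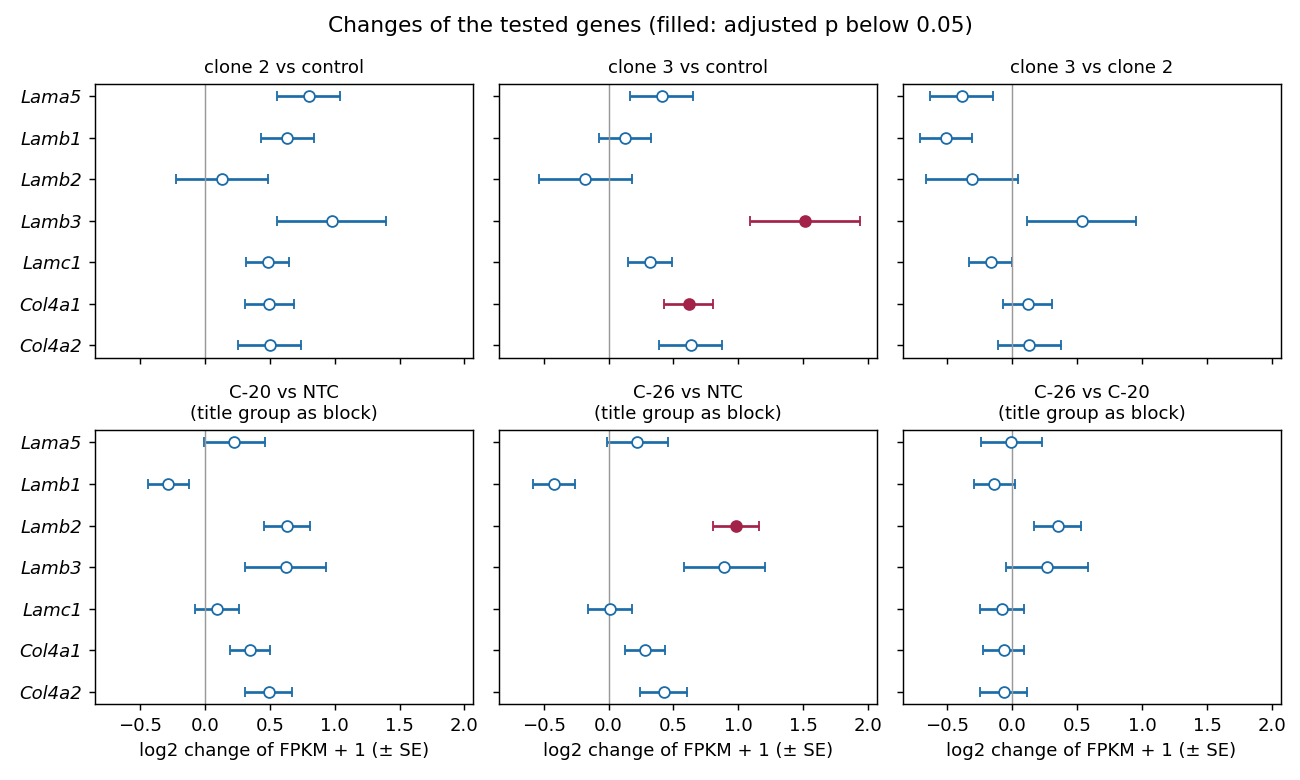
Log2 change of FPKM + 1 (points) with its standard error (bars) for the 7 tested genes, in 3 comparisons of titles, fitted with no block, and 3 of codes, fitted with the title group as a block; red filled points have an adjusted p below 0.05. Only Lamb3 and Col4a1 in clone 3 against control and Lamb2 in C-26 against NTC are filled.

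In clone 2 none of the 9 genes was called, although most of them lay above control. With limma no gene at all passed the threshold in this comparison, 0% of 10783, while 949 genes had an unadjusted p under 0.05. In 6 of the 9 genes, Lama3, Lama5, Lamb1, Lamb3, Lamc1 and Nid1, every clone 2 library lay above every control library. Among the 7 tested genes this held for 4, beside 7.66% of all tested genes. In clone 3 it held for 3 of the 9, Lamb3, Col4a1 and Nid1, and for 2 of the 7 tested genes, beside 21.9% of all tested genes. The clone comparisons share the control libraries. The median log2 change of the 7 genes was 0.50 in clone 2 and 0.41 in clone 3, beside 0.02 and 0.09 over all tested genes. After the length and GC correction it was 0.33 in clone 2 and 0.145 in clone 3, and without the control NTC library it was 0.37 and 0.27.

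Lama5, the α chain of the main adult epithelial laminins, measured 22.8, 43.4 and 42.0 FPKM in control NTC, C-20 and C-26. In clone 2 it measured 56.4, 67.4 and 59.8 FPKM, and in clone 3 it measured 55.2, 39.6 and 45.4. All clone 2 values lay above all control and all clone 3 values, and clone 3 overlapped with control. Clone 3 lay below clone 2 without overlap for 1 of the 7 tested genes, Lama5, beside 21.2% of all tested genes. The log2 change of clone 2 over control was 0.80 ± 0.24 with an adjusted p of 0.422 in limma, and 0.51 without the control NTC library. For clone 3 it was 0.41 ± 0.24 with an adjusted p of 0.254 in limma, and 0.12 without the control NTC library. Lama3, the α chain of hemidesmosomal laminin, measured 0.217, 0.443 and 0.254 FPKM in control, 0.846, 0.612 and 0.710 in clone 2 and 0.893, 0.479 and 0.393 in clone 3. Lama5 thus made up 98.4% to 99.4% of the summed FPKM of both α chains in every library. The deposited Lama3 row covers a single RefSeq transcript of 10548 bases, and RefSeq lists others for this gene, so its level over all transcripts is not known from this row.

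Lamb1, the β chain of many laminins outside hemidesmosomes, measured 136, 108 and 92.2 FPKM in control NTC, C-20 and C-26. In clone 2 the values were 185, 188 and 147 FPKM and in clone 3 they were 149, 103 and 115. All clone 2 libraries exceeded all control libraries, while clone 3 overlapped with both. The log2 change of clone 2 over control was 0.64 ± 0.20 (limma adjusted p 0.44), and that of clone 3 over clone 2 was -0.51 ± 0.20 (adjusted p 0.104). In that last comparison none of the 7 genes was called, beside 18.8% of all tested genes. Lamb1 was the single gene of the 9 whose lowest value was not in the control NTC library: it was highest in NTC in control and clone 3.

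Lamc1, the γ chain of most laminins, measured 34.8, 48.1 and 41.5 FPKM in control NTC, C-20 and C-26. It measured 58.0, 63.3 and 52.9 FPKM in clone 2 and 56.1, 45.8 and 53.2 in clone 3. Clone 2 lay above control without overlap and clone 3 overlapped with control. The log2 changes over control were 0.48 ± 0.17 and 0.32 ± 0.17, with limma adjusted p of 0.451 and 0.196, and without the control NTC library they were 0.37 and 0.20. Nid1, the linker between the laminin and collagen IV networks, measured 0.0572, 0.166 and 0.117 FPKM in control, 0.224, 0.397 and 0.547 in clone 2 and 0.171, 0.186 and 0.220 in clone 3. These levels are those of a gene with few reads, and they were not tested.

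By code, Lamb2 was the 1 gene of the 9 that was called, with the title group as a block. It encodes the β chain of neuromuscular and glomerular laminins and was the least abundant of the 3 β chains. It measured 4.26, 5.60 and 5.39 FPKM in the NTC libraries of control, clone 2 and clone 3. The C-20 libraries measured 9.65, 8.96 and 6.80 FPKM and the C-26 libraries 11.5, 13.1 and 8.70. All C-20 and all C-26 libraries lay above all NTC libraries, and within each title the order was NTC, C-20, C-26. The means were 5.085 ± 0.723, 8.474 ± 1.49 and 11.1 ± 2.21 FPKM (SD, n = 3 each).

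Without a block, the log2 change of Lamb2 in C-26 over NTC was 0.98 ± 0.21 with a limma adjusted p of 0.114, and 0.139% of tested genes were called. Libraries of 1 title resembled each other, and with the title group as a block Lamb2 rose by 0.98 ± 0.18 on the log2 scale with a limma adjusted p of 0.0141. It was the 1 called gene of the 7, beside 14.1% of all tested genes called in that fit. The call was lost without the C-26 library of control (limma adjusted p 0.0555), without the NTC library of clone 2 (0.0617) and without the C-26 library of clone 2 (0.131), and with no filter on low values (0.0610). For C-20 the log2 change was 0.63 ± 0.21 with a limma adjusted p of 0.617, with 0.0185% of tested genes called. With the block it was 0.63 ± 0.18 with a limma adjusted p of 0.110, and 0.306% of tested genes were called. C-26 over C-20 gave 0.35 ± 0.18 with the block and a limma adjusted p of 0.999, and 0.0185% of tested genes were called with or without it. The 2 comparisons with NTC share the NTC libraries. In the authors' deposited table, which uses these code groups, Lamb2 has a fold of 1.94 in C-26 and 1.52 in C-20 over NTC, with adjusted p-values of 0.554 and 0.911.

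The other 6 tested genes were not called by code. With the title block, Lamb3 had a log2 change of 0.89 ± 0.31 in C-26 over NTC (limma adjusted p 0.0807), of which 1.80 was measured in control, 0.59 in clone 2 and 0.29 in clone 3, and which was 0.38 without the control NTC library. Lamb1 had a log2 change of -0.42 ± 0.16 (limma adjusted p 0.102), and its C-26 library was below its NTC library in each title. After the correction for length and GC content with the block, the Lamb1 change was -0.51 with an adjusted p of 0.0374 in limma. Lama5, Lamc1, Col4a1 and Col4a2 had log2 changes of 0.22, 0.01, 0.28 and 0.43 in C-26. Without the control NTC library these were -0.11, -0.13, 0.20 and 0.23. Without regard to the block, libraries did not overlap between C-20 and NTC for Lamb2 and Col4a2, both higher, beside 4.7% of all tested genes, and between C-26 and NTC for Lamb2 only, beside 10.8%. With the block, the epithelial markers Krt8 and Krt19 also rose in C-26, by 1.47 and 1.46 on the log2 scale, with limma adjusted p of 0.0337 and 0.00750. Pdgfra and Cd68 rose in the same fit, by a log2 of 1.2 and 0.61 (limma adjusted p 0.0190 and 0.0338), and their part in the Lamb2 result was not tested. Without the C-26 library of clone 2 the limma adjusted p was 0.203 for Krt8, 0.0629 for Krt19, 0.141 for Pdgfra and 0.197 for Cd68, and after the length and GC correction it was 0.0553 for Krt8.

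The make-up of the β chains differed between libraries. Lamb1 made up 94.4%, 81.1% and 77.1% of the summed FPKM of the 3 β chains in control NTC, C-20 and C-26. In clone 2 it made up 88.4%, 88.0% and 78.0%, and in clone 3 it made up 82.3%, 72.4% and 73.5%. The Lamb3 share was 2.67% in the control NTC library, 7.82% to 15.1% in the 5 other libraries of control and clone 2, and 14.7% to 22.8% in clone 3. The Lamb2 share was 2.87% ± 0.168 in the NTC libraries, 5.42% ± 1.64 in the C-20 libraries and 7.38% ± 2.07 in the C-26 libraries (SD, n = 3 each), and it was higher in C-26 than in NTC within each of the 3 titles. These shares were not tested.

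**Figure D3:**
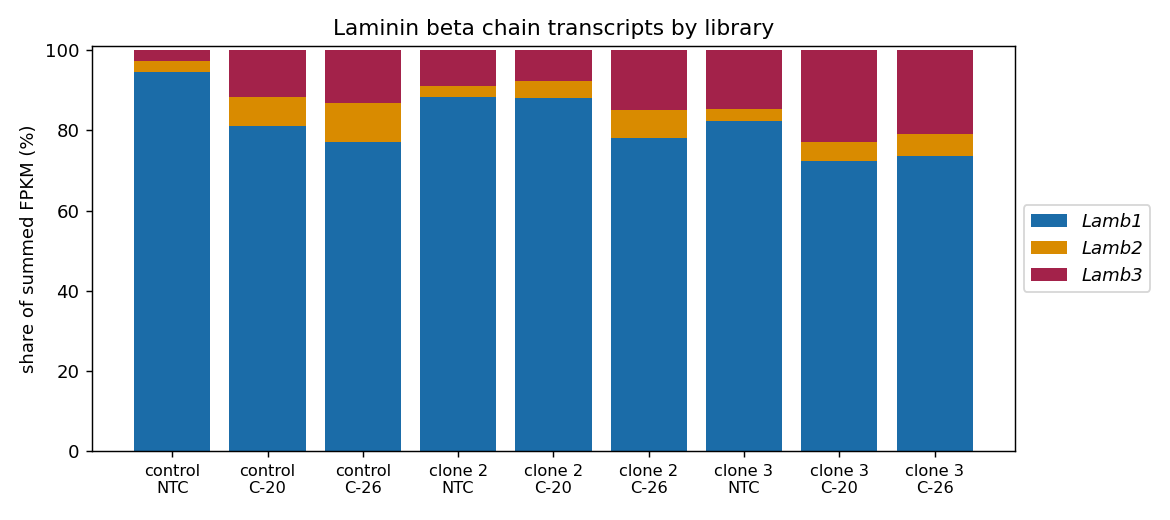
Share of Lamb1, Lamb2 and Lamb3 in their summed FPKM (percent, from 0 to 100) in each of the 9 libraries, labelled by title and code. Lamb1 is the largest part of every bar, Lamb3 takes 2.67% in the control NTC library and up to 22.8% in clone 3, and the Lamb2 part grows from NTC to C-26 in each title group.

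Of 9 other laminin, collagen IV and nidogen chains compared here, only Col4a5 was expressed well enough to be tested. Col4a5, a chain of the collagen IV of kidney and skin, fell in clone 3, by 0.93 on the log2 scale against control (limma adjusted p 0.0153) and by 1.02 against clone 2 (adjusted p 0.0113). Its values were 4.90, 3.63 and 4.95 FPKM in control and 5.21, 4.43 and 4.79 in clone 2. In clone 3 they were 3.00, 1.32 and 1.54, below both other groups. Clone 3 lay below control without overlap in 18.8% of all tested genes, and below clone 2 in 21.2%. Of all tested genes, 20.6% were called in clone 3 against control, 1418 of them lower. Against clone 2, 18.8% were called, 1380 of them lower. The Col4a5 call against control was lost without the C-20 or C-26 library of clone 3 (limma adjusted p 0.0728 and 0.0705) and without the C-26 library of control (0.0546). The remaining 8 chains were low in all libraries: Col4a6 did not exceed 0.292 FPKM, Lamc3 0.0750, Lama2 0.0670, Col4a4 0.0441, Nid2 0.0299, Lama1 0.0254, Col4a3 0.0242 and Lama4 0.0187.

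Among 19 other basement membrane components, 9 were tested and 3 rose in clone 3 over control, with none lower, beside 20.6% of all tested genes called in this comparison, 802 higher and 1418 lower. They were Sparc, a matricellular protein that binds collagen IV, the proteoglycan perlecan Hspg2, and the fibulin Fbln2. Their log2 changes were 0.97, 0.95 and 0.71, with limma adjusted p of 0.00630, 0.0192 and 0.0367. Sparc was called with any 1 library left out and lost with the length and GC correction (limma adjusted p 0.0686), while Hspg2 and Fbln2 were lost without, among others, the C-26 library of clone 3 (0.0736 and 0.0677). The Fbln2 call was also lost with the length and GC correction, at 0.34 (limma adjusted p 0.424). All 9 tested components had positive changes in clone 2, with none called, and the median was 0.49 in clone 2 and 0.36 in clone 3, against 0.02 and 0.09 over all tested genes. The clone 3 median was -0.02 after the length and GC correction and 0.13 without the control NTC library. In C-26 over NTC with the title block, nephronectin Npnt, an integrin ligand, rose by 1.14 (limma adjusted p 0.0156). That call was lost without, among others, the C-26 library of clone 2 (0.141). It was the 1 call among these 9, beside 14.1% of all tested genes called in that fit.

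All 14 laminin and collagen receptors were tested. Itga3, the integrin chain that binds hemidesmosomal and Lama5 laminins, was the 1 called in clone 3 over control, at 0.73 (limma adjusted p 0.0405). Of all tested genes, 20.6% were called in that comparison. Against clone 2, Ddr2, a receptor kinase for fibrillar collagens, fell in clone 3 by 1.02 (limma adjusted p 0.0220). It was the 1 called of the 14, beside 18.8% of all tested genes. The median log2 change of the receptors was 0.34 in clone 2 and 0.48 in clone 3 over control, and in clone 3 it was 0.11 after the length and GC correction. That correction also ended both calls, with Itga3 at 0.36 (limma adjusted p 0.336) and Ddr2 at -0.49 (0.171). Without the control NTC library the medians were 0.15 in each clone. In C-26 over NTC with the title block, 3 of the 14 rose, beside 14.1% of all tested genes called in that fit. They were Bcam, a receptor for Lama5, by 0.82, the laminin receptor dystroglycan Dag1 by 0.74, and the syndecan Sdc1 by 0.68. Their limma adjusted p-values were 0.0245, 0.0334 and 0.0400. Without the C-26 library of clone 2 these were 0.164, 0.198 and 0.250, the Sdc1 call was lost with the length and GC correction (0.0663), and the Itga3 and Ddr2 calls were lost without the C-26 library of clone 3 (limma adjusted p 0.132 and 0.0981), each among other libraries.

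Of 20 genes for collagen folding, modification and crosslinking, 18 were tested. In clone 3 over control 1 was higher and 2 were lower, beside 20.6% of all tested genes called, 802 higher and 1418 lower. Glt25d1, which adds galactose to hydroxylysine of collagen, rose by 0.58 (limma adjusted p 0.0257). Plod2, a lysyl hydroxylase, fell by 0.95 and Mia3, which loads collagen into vesicles for export, fell by 0.93 (limma adjusted p 0.0341 and 0.0262). Against clone 2 the same 2 genes fell in clone 3, by 1.21 and 0.86 (limma adjusted p 0.0137 and 0.0385). Of all tested genes, 18.8% were called against clone 2. Loxl2, a lysyl oxidase that crosslinks collagen IV, fell by 0.70 in C-26 over NTC with the title block (limma adjusted p 0.0349). That fit called 14.1% of all tested genes. Each of these calls was lost without 1 library or another: without the C-26 library of clone 3 the limma adjusted p against control was 0.0830 for Glt25d1, 0.135 for Plod2 and 0.0976 for Mia3, and without the C-26 library of clone 2 it was 0.141 for Loxl2. After the length and GC correction the changes against control were 0.21 for Glt25d1, -0.40 for Plod2 and -0.76 for Mia3, none called (limma adjusted p 0.450, 0.403 and 0.113). Against clone 2 they were -0.73 for Plod2 and -0.75 for Mia3, again not called (0.118 and 0.115). The median of the 18 was 0.09 in clone 2 and 0.22 in clone 3 over control, and 0.05 in clone 3 after that correction. In clone 2 over control, 0 genes of any of these 4 lists were called, and by code without the block none was called either. Of the 6 epithelial markers, Krt7 was called in clone 3 over control, at 1.28 (limma adjusted p 0.00680), and with any 1 library left out.

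**Figure D4:**
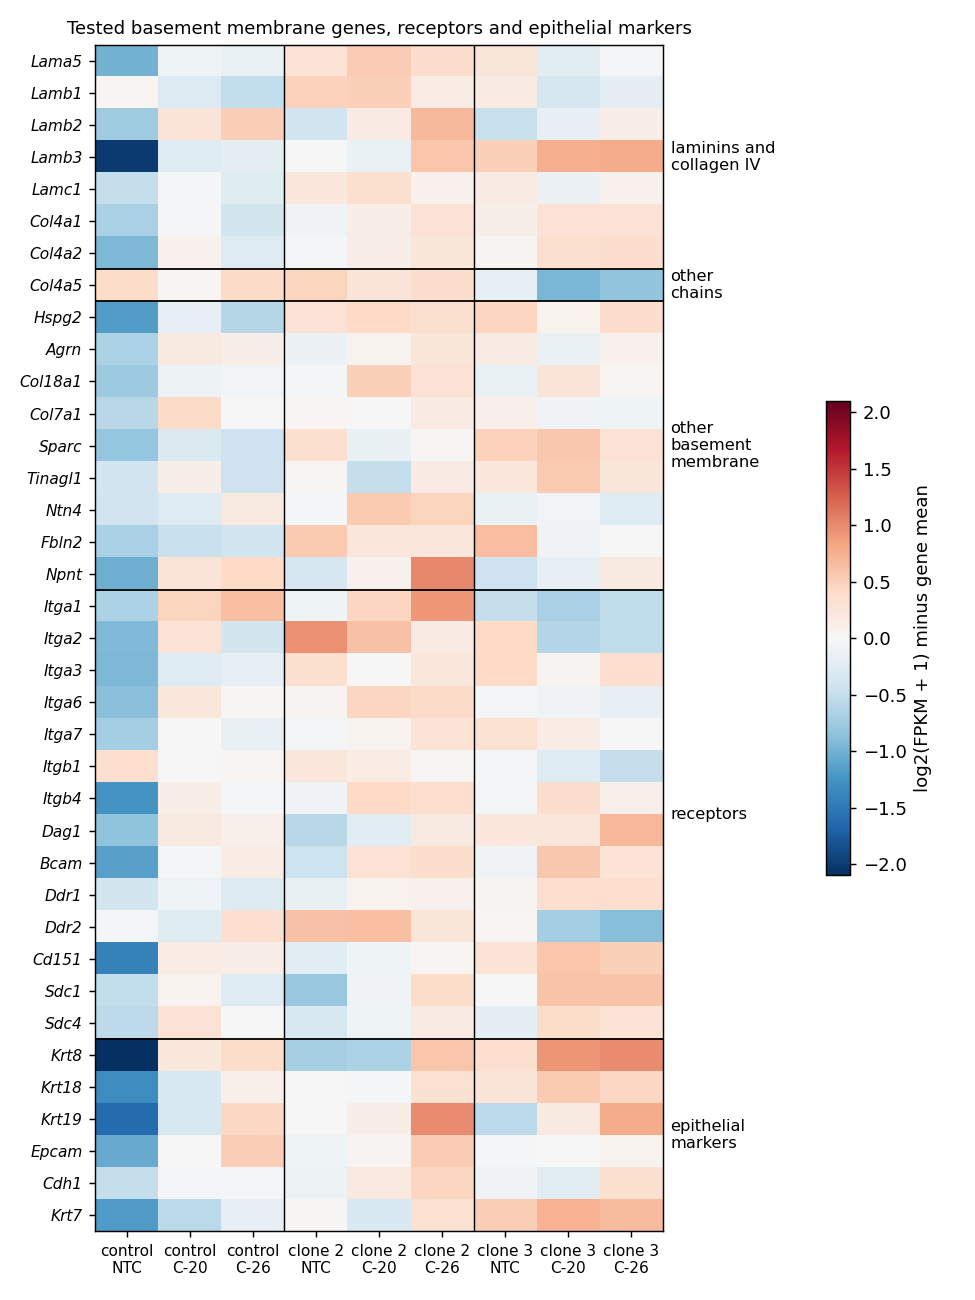
Deviation of log2(FPKM + 1) from the mean of each gene over 9 libraries, for the tested laminin and collagen IV genes, other chains, other basement membrane components, receptors and epithelial markers; columns are libraries by title and code. The control NTC column is the lowest for 6 of the 7 tested laminin and collagen IV genes and for all 6 epithelial markers.

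Genes that followed each chain most closely were taken by the smallest root mean square difference of centred log2(FPKM + 1) over the 9 libraries, for chains spanning at least 1 log2 unit. Lamb3 spanned 2.80 log2 units, the widest range of the 9. It was followed by the prostaglandin transporter Slco2a1 at a difference of 0.178, by Dcxr at 0.267 and by Arhgef1 at 0.270. The median over all tested genes was 0.830, but genes chosen as the closest lie below it by that choice. Lamb2 was followed by Dock6, Fam115a and Perp, a desmosome protein, at 0.0882, 0.0935 and 0.104. Col4a2 was followed by Bcr at 0.0559, then Card14 and Slc16a13. Lama5 was followed by Cntnap1, Syne2 and Sema5a at 0.110 to 0.123, and Lamb1 by Sh3rf1, Usp6nl and Ptprk at 0.0944 to 0.112.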

How the data were processed

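RNA of 9 libraries was sequenced from polyadenylated RNA, per the labels' protocols. The submitters' processing notes name mm10, TopHat2 2.0.13, Bowtie2 2.2.3 and Cufflinks 2.2.1. The authors deposited FPKM of 24067 genes and, for 13414 genes above 0 in all libraries, log2 values after quantile normalization, a signed fold, scores and p-values for each pair of codes, per the file headers. FPKM sums ran from 439018.1 to 560091.9, and absolute depth is unknown.

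log2(FPKM + 1) of genes with at least 1 FPKM in at least 3 libraries was fitted for all 9 libraries in limma 3.58.1 (R 4.3.3) with a mean-variance trend, by title and, separately, by code. Benjamini-Hochberg adjustment covered 10783 genes, and adjusted p-values were called below 0.05. Codes were also fitted with the title group as block, because the 9 correlations of deviations between libraries of 1 title ran from 0.26 to 0.88. The fit of clone 3 against control, without a block, was checked on simulated data in which libraries were independent. The fits by code and those with a block were not checked in this way. The genes, lists and tests were chosen with earlier results of these data known. Named genes are the 9 genes, the other chains, up to 4 called genes per list and comparison with the largest change, and the 3 closest genes per chain. An item that this rule covers is not reported here.

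Coordinates, promoters and the microRNA came from RefSeq GRCm38.p6, and 3′ UTRs, length and GC content from GENCODE M21. Figures used Python 3.11.15 and matplotlib 3.10.9. Alternatives were a pseudocount of 0.1, no filter, quantile or median ratio scaling, a length and GC correction by splines of 4 degrees of freedom, fits of 2 groups alone, fits without each library, the clone 3 libraries left out of the codes, and the block. The authors' quantile-normalized values, and alternatives other than the length and GC correction for the blocked fits of the codes, were added after the data were seen.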

Additional observations from a re-analysis of the deposited data

Results flagged for a closer look

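For Lama5, Lama3 and Lamc1, C-20 and C-26 lay above NTC in control and below it in clone 3. Each title has 1 library per code and both codes are set against the same NTC library, so none of these differences was tested. For Lama5, C-20 and C-26 were both above NTC in control and clone 2 and both below it in clone 3. The mean log2 difference from NTC was 0.88 in control, 0.17 in clone 2 and -0.37 in clone 3, and control exceeded clone 3 by 1.25. For Lama3, under 1 FPKM throughout, both were above NTC in control and below it in clone 2 and clone 3, and the mean in control exceeded that in clone 3 by 0.54. For Lamc1, both were above NTC in control and below it in clone 3, and the mean in control exceeded that in clone 3 by 0.53. The NTC library of control is the one that held the lowest value for these 3 genes, as for 29.1% of all tested genes. How many of all tested genes reverse in this way was not counted.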

How the results depend on the processing

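Of 1491 alternative values of single genes, the list genes named included, 1255 kept their direction and side of the threshold, 164 lost the threshold and 12 gained it. The other 60, all of laminin or collagen IV chains and called under neither setting, changed sign. The largest of these values was 0.25 in size. These counts take in many genes not called in the main fit, which cannot lose the threshold. Among called genes, Col4a1 in clone 3 against control kept its call in 4 alternatives and lost it in 14. Lamb3 kept its call there in 11 and lost it in 7. Lamb2 in C-26 against NTC with the block kept its call in 12 and lost it in 4. In clone 3 against control, 2 genes were called; there were 0 with no filter, 0 after the length and GC correction, 0 with only the 2 groups compared, 1 with quantile scaling, 1 with median ratio scaling, 1 with the authors' quantile-normalized values, and 0 to 3 with 1 library left out. The 0 came without any 1 of the clone 3 libraries, where the limma adjusted p of Lamb3 was 0.0532, 0.104 and 0.101. In clone 3 against clone 2, where 0 were called, Lamb1 was called with quantile scaling (1) and with the authors' quantile-normalized values (1), and 0 to 1 with 1 library left out. For C-26 against NTC with the block, 1 gene was called, 0 with no filter, 2 after the length and GC correction, and 0 to 2 with 1 library left out. All other comparisons called 0 genes under every library left out (0 to 0). Quantile scaling moved the median of all genes in clone 3 to 0.12 against control and to 0.11 against clone 2.

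The labels do not say that libraries of 1 code pair across titles, and the 9 correlations of their deviations ran from -0.24 to 0.56. With the code as replicate block, 3 genes were called in clone 3 against control (Col4a2 added, limma adjusted p 0.0251) and 1, Lamb1, against clone 2 (0.0376); with the length and GC correction as well, 0 and 1. For C-26 against NTC the block by title called 1, and 2 with that correction. With the code as block, the limma F test among titles gave adjusted p of 0.0138 for Lamb3 and 0.0262 for Col4a1. In the same F test it was 0.0266 for Lamb1 and 0.0445 for Col4a2, and Lama5, Lamb2 and Lamc1 were not called. The share of all tested genes called in that F test is not reported here. Depth is unknown, and values under 1 FPKM were not tested.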
